A study of Mus musculus with 14 samples.

Results

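The inducible heat shock genes Hspa1a, Hspa1b, Hspa8, Hsph1, Dnajb1, Dnaja1, Bag3 and Hspe1 were followed across early B lineage cells of mouse bone marrow. They were picked by gene name, with earlier results of these data known. These 8 genes are among 18193 genes measured, and 18 of the 45101 probe sets of the array carry one of their symbols in the annotation. A probe set is a group of short probes that read the 3' part of a transcript. Where a gene had several, the one with the highest mean over all arrays leads the description, and values are log2 signals, on which 1 unit is a doubling.

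Heat shock proteins are chaperones that bind unfolded proteins and help them fold or pass them on for degradation. HSP70 proteins hold and release their clients in a cycle driven by ATP, in which J proteins bring the client and start ATP hydrolysis, and exchange factors remove ADP so that the client is released. When proteins unfold, as in heat, the transcription factor HSF1 binds repeats of the unit GAA and its complement TTC before these genes, and their transcripts rise within minutes.

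The cells were sorted from bone marrow of C57Bl6 mice, which the labels give as 8 to 12 weeks old, and fall into 6 groups. Pax5KO engrafted cells (3 arrays) and WT engrafted cells (3 arrays) stem from fetal liver of day 15 embryos, without Pax5 or wild type, in which a reporter marks cells that make λ5, part of the surrogate light chain. The donor cells were put into sublethally irradiated mice, and marrow cells positive for B220 and the reporter were sorted after 4 weeks. Such hosts keep blood-forming cells of their own, and the labels call the host mice wild type. The remaining 4 groups have 2 arrays each and come from marrow of mice without a transplant: Ly6D- and Ly6D+ CLP, then ProB, then PreB cells. CLP are common lymphoid progenitors, which start to express Ly6D as they turn to the B lineage, and ProB and PreB cells are the stages that follow. Apart from irradiation and transplant in the engrafted groups, no treatment is stated. The labels call the arrays of a group biological replicates but do not say whether mice were pooled, how the deletion of Pax5 was made, or how long the cells were handled.

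Of 11 B lineage markers measured, 6 rose and none fell in Ly6D+ against Ly6D- CLP. Igll1, which encodes λ5, read at least 11.4 on the engrafted, Ly6D+ CLP and ProB arrays and at most 4.61 in Ly6D- CLP, and Cd79a, a chain of the B cell receptor, was at the floor of the table in Ly6D- CLP. Il2ra, a surface marker of PreB cells, read 6.61 and 6.30 in PreB and was at the floor in ProB cells. Pax5 itself read 7.57 to 7.95 in Pax5KO engrafted and 6.18 to 6.76 in WT engrafted cells; where it lies relative to the deletion is not stated, so these values do not check the genotype. Cd79a, a known target of Pax5, read 5.36 to 5.48 in Pax5KO engrafted and 8.13 to 8.84 in WT engrafted cells, and Ms4a1, the B cell antigen CD20, read 2.36 to 3.12 in Pax5KO engrafted and 10.9 to 12.4 in WT engrafted cells. The 2 PreB arrays stand apart. Their poly-A spike controls, transcripts added to the RNA before labelling, averaged 2.94 and 2.99, against 6.86 to 14.3 on the other 12 arrays, and their actin probe sets were 6.71 and 7.27 lower at the 5' than at the 3' end, against 2.51 to 5.57. PreB identity and the handling of these arrays cannot be told apart. Among the other arrays, the poly-A value of 6.86 came from ProB array 1, while ProB array 2 read 12.9. The next lowest was 10.1, on Pax5KO engrafted array 3. The Gapdh probe sets differed most between 3' and 5' end on Pax5KO and WT engrafted arrays 3, by 5.79 and 5.44, against 4.88 and 4.35 in PreB. Xist, expressed from the inactive X chromosome of female cells, read 10.7 and 11.5 in ProB and at most 2.33 in Ly6D+ CLP and PreB cells, so the sex of the cells and the group cannot be told apart where ProB is set against either. Xist was also high, at 12.7 to 13.2, on all Pax5KO engrafted arrays and on WT engrafted array 3, and at most 2.58 on WT engrafted arrays 1 and 2. Sex and group are thus partly confounded where WT engrafted cells are set against Pax5KO engrafted or ProB cells.

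The windows around the transcript starts show how alike the members are at the letters that HSF1 is known to bind. RefSeq windows of 250 bases before to 50 after the start (assembly GRCm38.p6) were matched for 7 of the 8 genes, without Hspa8. A heat shock element of 2 units (GAANNTTC or TTCNNGAA, each its own reverse complement) was searched on both strands, as was one of 3 units, which extends a 2-unit match by a further unit 2 bases on and so contains it. Only the 250 bases before the start were searched. There, 12.8% of all 32851 windows held the 2-unit and 0.466% the 3-unit element. The stretches that hold a match are shown up to the base before the start, because they let the paired genes Hspa1a and Hspa1b be compared with the others. The matches are in capitals. Hspa1a lies at chr17:34972157-34972290 and Hspa1b at chr17:34959239-34959372, both on the minus strand, Hsph1 at chr5:149636337-149636399 on the minus strand, Dnaja1 at chr4:40722314-40722467 and Hspe1 at chr1:55088029-55088147, both on the plus strand.
Hspa1a: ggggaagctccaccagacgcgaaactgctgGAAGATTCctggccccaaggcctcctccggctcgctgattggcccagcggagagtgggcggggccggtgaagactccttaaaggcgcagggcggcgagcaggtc
Hspa1b: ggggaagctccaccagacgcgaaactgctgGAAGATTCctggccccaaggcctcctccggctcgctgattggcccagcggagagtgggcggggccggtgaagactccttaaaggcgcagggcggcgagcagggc
Hsph1: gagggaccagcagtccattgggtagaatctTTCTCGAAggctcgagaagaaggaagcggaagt
Dnaja1: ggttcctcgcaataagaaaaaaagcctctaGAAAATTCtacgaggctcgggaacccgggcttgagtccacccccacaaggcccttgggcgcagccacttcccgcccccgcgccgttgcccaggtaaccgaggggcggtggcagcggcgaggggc
Hspe1: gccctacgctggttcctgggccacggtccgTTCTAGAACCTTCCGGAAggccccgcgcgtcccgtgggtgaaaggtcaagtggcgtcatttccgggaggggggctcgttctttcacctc

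Over the 250 bases before the start, Hspa1a and Hspa1b differed at 3 positions and were 98.8% identical, with the 2-unit element at -104 in both. The 2 genes lie 10120 bases apart on chromosome 17. Hspe1 held 2 overlapping 3-unit elements, and Hsph1 had a 2-unit element at -33 and Dnaja1 at -124. Hsph1 and Dnaja1 each have further annotated starts, and the other windows of Dnaja1 held no match. These letters were not in the 250 bases before the starts of Dnajb1 and Bag3. A match is a stretch of letters and was not shown here to be bound.

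**Figure D1:**
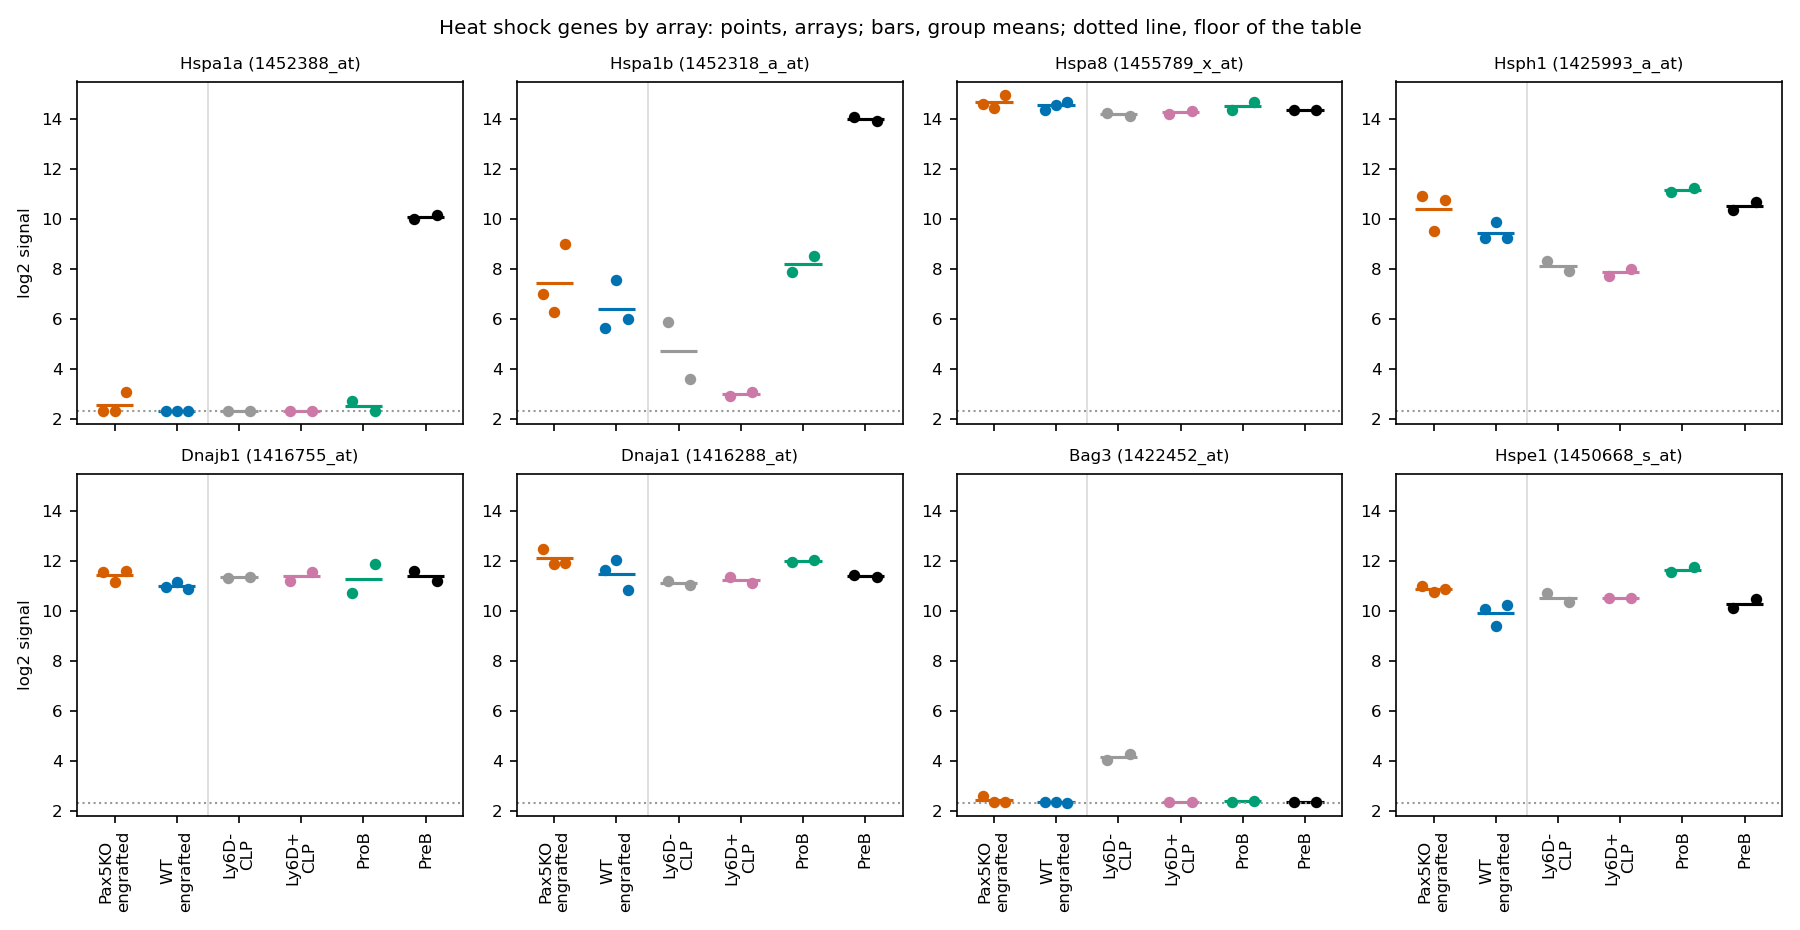
Log2 signal (vertical axis) of the leading probe set of each of the 8 heat shock genes on all 14 arrays, by group (horizontal axis). Points are arrays, bars are group means and the dotted line is the floor of the table at 2.32; Hspa1a stays near the floor outside PreB, while Hspa8 lies between 14.12 and 14.96 on every array.

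Hspa1a and Hspa1b encode the stress-inducible HSP70, and their proteins are nearly the same. Hspa1a (chr17:34969359-34972156, probe set 1452388_at) read 9.98 and 10.16 on the PreB arrays, against 2.72 and 2.32 on the ProB arrays. On all 4 CLP arrays and all 3 WT engrafted arrays it was at 2.32, the floor, and on the Pax5KO engrafted arrays it read 2.32, 2.32 and 3.07. PreB was thus the only group with a clear Hspa1a signal, and neither PreB array overlapped any other array. The difference between PreB and ProB was 7.55 (SE 0.23, limma adjusted p = 4.64e-07). Because ProB was at the floor, this is a lower bound, of at least 188-fold. The SD was 0.00 in the WT engrafted and CLP groups, so the floor also makes this SE and p small. Only 8 of the 18193 genes had a difference as large or larger, Hspa1a included.

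Hspa1b (chr17:34956429-34959238, probe set 1452318_a_at) followed a wider gradient. Ly6D- CLP read 5.86 and 3.58, Ly6D+ CLP 2.91 and 3.08, ProB cells 7.86 and 8.53, and PreB cells 14.08 and 13.91. In Pax5KO engrafted cells it read 7.0, 6.28 and 9.0, and in WT engrafted cells 5.64, 7.55 and 6.01. The order from high to low was PreB, ProB, Pax5KO engrafted, WT engrafted, Ly6D- CLP and Ly6D+ CLP. ProB overlapped Pax5KO engrafted, Pax5KO engrafted overlapped WT engrafted, and WT engrafted overlapped Ly6D- CLP, so only both ends of the order stood clear of their neighbours. Hspa1b was higher in PreB than in ProB by 5.80 (SE 1.02, limma adjusted p = 0.00799), a 55.7-fold difference, and higher in ProB than in Ly6D+ CLP by 5.20 (SE 1.02, limma adjusted p = 0.0181), a 36.8-fold difference. The second call ended without Ly6D+ CLP array 1 or 2 or ProB array 2 (limma adjusted p = 0.0524, 0.0552 and 0.0888), and the first held without any single array (limma adjusted p from 0.0301 to 0.0367).

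Hspa1b has 2 further probe sets, which moved with the leading one. Probe set 1427127_x_at read 13.04 and 12.52 in PreB against 6.58 and 6.83 in ProB, and 1427126_at read 11.96 and 11.45 in PreB against 5.32 and 2.79 in ProB. Fitted on their own, all 3 probe sets were called between PreB and ProB, with differences of 5.80 to 7.65. Between ProB and Ly6D+ CLP 2 of 3 were called, and the third differed by 1.57. Probes for one of these near-identical genes may also bind the transcript of the other, so the signals of Hspa1a and Hspa1b cannot be fully assigned to either gene.

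**Figure D2:**
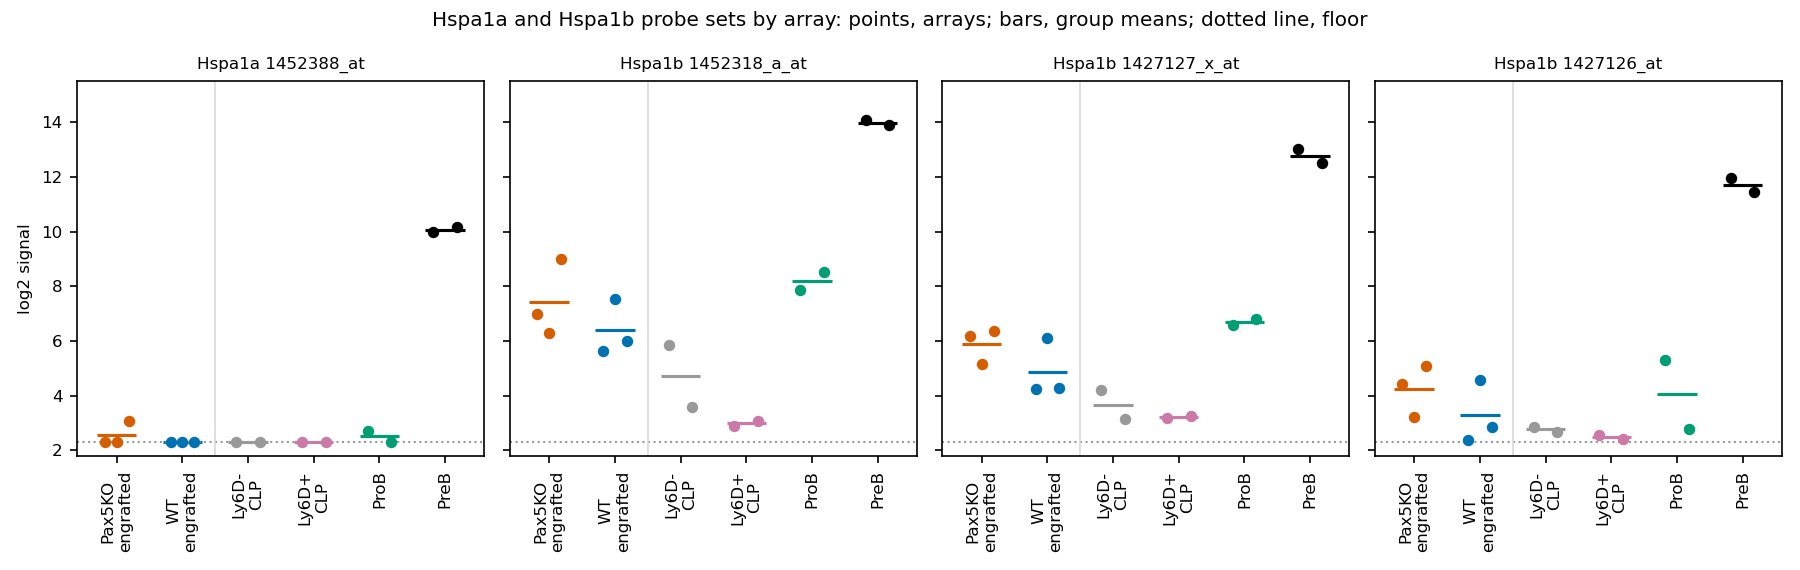
Log2 signal (vertical axis) of the 4 probe sets of Hspa1a and Hspa1b by group (horizontal axis), with points for arrays, bars for group means and a dotted line at the floor. On each probe set both PreB arrays lie above all other arrays; the lowest PreB value is 9.98 for Hspa1a.

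The control probe sets were set beside Hspa1b, since the PreB arrays were extreme in both. PreB was the group with the highest Hspa1b, the lowest poly-A controls and the largest actin 3' to 5' difference, while its hybridisation controls, added after labelling, averaged 12.63 and 13.03 and lay within the 10.8 to 13.9 of the other arrays. With the actin difference of each array as a covariate, the PreB minus ProB difference of Hspa1a was 7.17 (SE 0.48, limma adjusted p = 0.000843). That of Hspa1b was 4.31 (SE 2.10, limma adjusted p = 0.375) and no longer called. The actin differences of PreB lay outside the 2.51 to 5.57 of the other arrays, so both fits extrapolate. Outside PreB, Hspa1a was at or near the floor and could hardly follow the covariate. Neither value therefore tests the part of the actin difference.

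**Figure D3:**
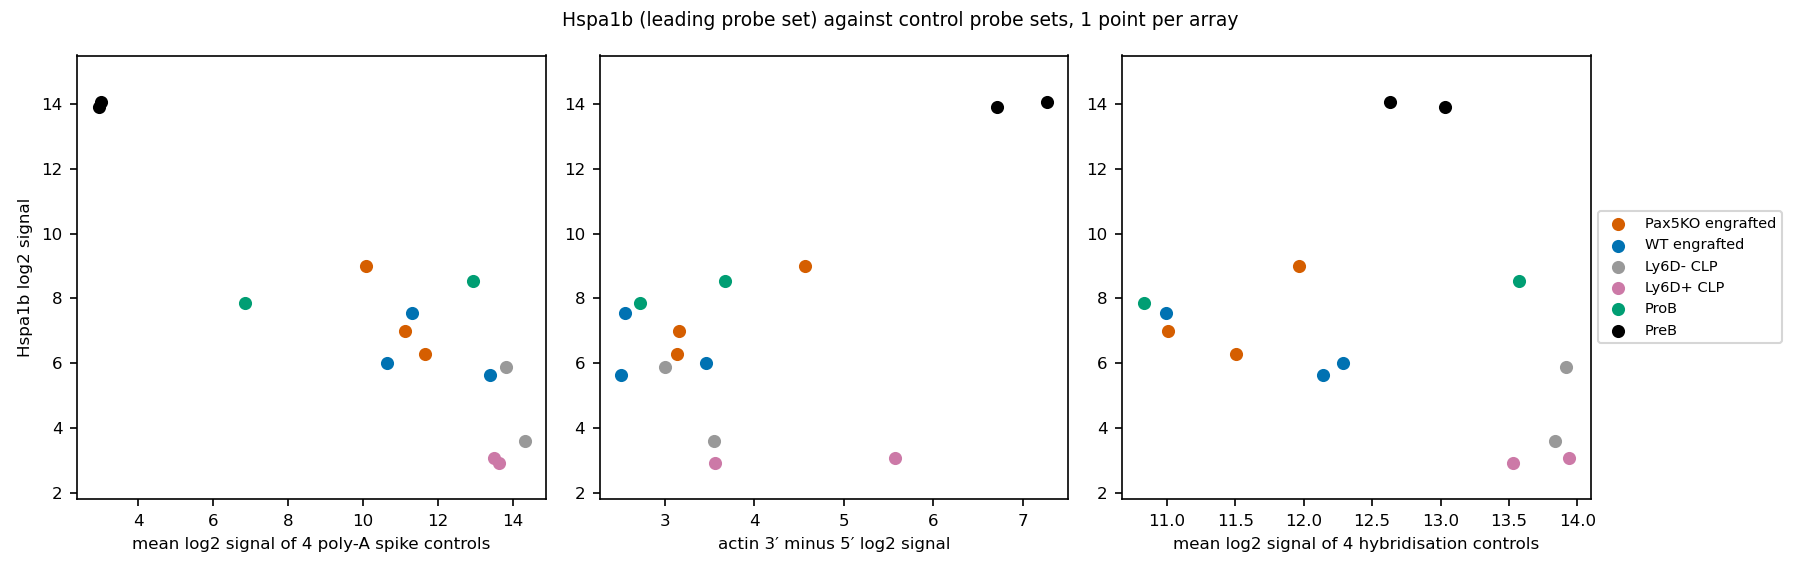
Hspa1b log2 signal (vertical axes) against the mean log2 signal of 4 poly-A spike controls, the actin 3' minus 5' log2 signal and the mean log2 signal of 4 hybridisation controls (horizontal axes), with 1 point per array coloured by group. The PreB arrays lie at the low end of the poly-A controls (2.94 and 2.99) and the high end of the actin difference (6.71 and 7.27), and within the range of the hybridisation controls.

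Hspa8 encodes HSC70, the HSP70 that cells make without stress. Its leading probe set (1455789_x_at; gene at chr9:40801276-40805202) had the highest mean of the 18 probe sets. It read 14.59, 14.46 and 14.96 in Pax5KO engrafted and 14.37, 14.56 and 14.70 in WT engrafted cells. In the cells without transplant it lay between 14.12, on a Ly6D- CLP array, and 14.69, on a ProB array, with 14.34 and 14.35 in PreB. The 6 group means spanned 0.49, and the moderated F test of limma over all groups did not call Hspa8 (adjusted p = 0.244). Of its 3 other probe sets, 1420623_x_at was called by the F test, with means that spanned 1.30 (limma adjusted p = 0.028 over all probe sets). This probe set was lower in PreB than in ProB by -1.19 (limma adjusted p = 0.0184 over all probe sets). The means of 1420622_a_at spanned 1.11 and those of 1431182_at 1.67 (limma F test adjusted p = 0.065 and 0.741), and neither was called in any comparison.

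Hsph1 encodes HSP110, an exchange factor that works with HSP70. Its leading probe set (1425993_a_at; gene at chr5:149616843-149636498) gave 8.31 and 7.91 for Ly6D- CLP, 7.70 and 8.01 for Ly6D+ CLP, 11.08 and 11.23 for ProB and 10.37 and 10.66 for PreB cells. It read 10.93, 9.53 and 10.75 in Pax5KO engrafted and 9.24, 9.87 and 9.25 in WT engrafted cells. The lymphoid progenitors were low, and every ProB, PreB and engrafted array lay above all 4 CLP arrays. Hsph1 was higher in ProB than in Ly6D+ CLP by 3.30 (SE 0.43, limma adjusted p = 0.00266), a 9.82-fold difference. Both Hsph1 probe sets were called, the other by 4.31. The call held without any single array (limma adjusted p from 0.00625 to 0.0153) and ended with array weights (0.239) and with only these 4 arrays in the fit (0.0997). PreB differed from ProB by -0.64 (SE 0.43, limma adjusted p = 0.437), so Hsph1 was not called where Hspa1a and Hspa1b were. WT engrafted cells were lower than ProB by -1.70 (SE 0.39, limma adjusted p = 0.0467), a call that ended when any single array of these 2 groups was left out (limma adjusted p from 0.0648 to 0.198).

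Dnajb1 and Dnaja1 encode J proteins that bring clients to HSP70. Dnajb1 (1416755_at; gene at chr8:83608175-83612653) ranged from 10.72 to 11.88 over the 14 arrays, and both of these values came from the 2 ProB arrays. Its group means spanned 0.44, and each group overlapped its neighbour in the order of levels (limma F test adjusted p = 0.835). Dnaja1 (1416288_at; gene at chr4:40722468-40734965) ranged from 10.82 on a WT engrafted array to 12.49 on a Pax5KO engrafted array. Its group means spanned 0.99, again with each group overlapping the next (limma F test adjusted p = 0.193). The second Dnajb1 probe set, 1416756_at, lay between 5.15 and 7.98 and was not called by the F test (limma adjusted p = 0.603). Of the further Dnaja1 probe sets, 1460179_at lay between 8.19 and 10.24 (limma F test adjusted p = 0.371). The other, 1459835_s_at, was called among the 6 groups, with means that spanned 1.49 (limma F test adjusted p = 0.0320 over all probe sets). Its PreB minus ProB difference was 0.49, against -0.61 on the leading probe set, neither called, so the Dnaja1 probe sets disagree there. No probe set of either gene was called in any of the 6 comparisons between 2 groups. Dnajb1 read 11.58 and 11.19 in PreB, and Dnaja1 11.44 and 11.35, on the arrays where Hspa1a and Hspa1b were highest.

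Bag3 encodes an exchange factor of HSP70 that links it to autophagy. Its single probe set (1422452_at; gene at chr7:128523583-128546981) read 4.04 and 4.26 in Ly6D- CLP. On the other 12 arrays it lay between 2.32 and 2.58, within 0.5 of the floor, PreB included. Ly6D+ CLP, at 2.37 on both arrays, was lower than Ly6D- CLP by -1.77 (SE 0.08, limma adjusted p = 1.66e-05), and this is a bound because Ly6D+ CLP was at the floor. Arrays at the floor hardly vary, with an SD of 0.00 in Ly6D+ CLP and PreB. The fitted spread, and with it this SE and p, is thus made small by the floor. The level in Ly6D- CLP is itself low, and with only these 4 arrays in the fit the adjusted p was 0.35. Over the 10 granulocyte and monocyte markers the summed log2 signal was 44.4 and 49.8 in Ly6D+ CLP and 50.2 and 84.0 in Ly6D- CLP, with none of the 10 called between them; S100a9, Elane, Ngp, Camp and Ltf were at the floor in Ly6D+ CLP and Elane in Ly6D- CLP. Their part in the Bag3 difference was not tested.

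Hspe1 encodes HSP10, the lid of the mitochondrial chaperonin, whose barrel is made by its neighbour Hspd1. Its leading probe set (1450668_s_at; gene at chr1:55088148-55091317) read 10.99, 10.77 and 10.90 in Pax5KO engrafted and 10.06, 9.39 and 10.25 in WT engrafted cells, so all Pax5KO arrays lay above all WT arrays. The values were 10.72 and 10.35 for Ly6D- CLP, 10.51 and 10.52 for Ly6D+ CLP, 11.55 and 11.74 for ProB and 10.11 and 10.47 for PreB cells. ProB was the highest group and overlapped no other. Hspe1 has processed pseudogene copies in the mouse genome, whose sequence this probe set may share, and the dimmer probe set 1422579_at lay between 4.48 and 5.88 and was called in none of the 6 comparisons.

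Setting Pax5KO engrafted against WT engrafted cells asks whether donor cells without Pax5 differ in these transcripts. By Xist, sex is partly confounded with genotype here. Hspe1 was higher by 0.98 (SE 0.21, limma adjusted p = 0.0296), and it was the only one of the 8 called, against 5.94% of all genes (3.64% higher, 2.29% lower). The call ended with the replicate number as a block (limma adjusted p = 0.218). Leaving out Pax5KO array 1, 2 or 3 or WT array 1 ended it too (limma adjusted p = 0.113, 0.0703, 0.0792 and 0.0629). Hsph1 differed by 0.95 (SE 0.35, limma adjusted p = 0.213). Leaving out Pax5KO array 2, the low one of its group, gave a called difference of 1.39 (limma adjusted p = 0.0154). The 8 differences were above 0, with a median of 0.52. The median of all genes, 0.00, is no reference for expressed genes, since 40.1% to 43.4% of probe sets on these arrays lay within 0.01 of the floor. List medians were 0.59 for mitochondrial chaperones and proteases, 0.45 for endoplasmic reticulum stress genes and 0.45 for chaperonin ring subunits. They were 0.36 for other heat-inducible chaperones and 0.23 for co-chaperones, but 0.00 for other HSP70 proteins and -0.20 for immediate early genes. Bag3 was at the floor in both groups, and Hspa1a rested on 1 Pax5KO array. Bag3 turned to -0.02 with arrays centred on their 75th percentile, and Hspa8 turned to -0.0018 with the actin covariate. Of the members, 2 had an unadjusted p under 0.05, as had 2760 of all 18193 genes. The actin 3' to 5' difference was 3.14 to 4.57 on Pax5KO and 2.51 to 3.47 on WT arrays, and with it as a covariate no member was called. Lyz2 rose among 10 granulocyte and monocyte markers, with Elane, Ngp, Camp and Ltf at the floor in Pax5KO and Ltf in WT cells, and Klrd1 rose among 7 T and NK cell markers, with Cd3e, Cd3g, Cd8a and Ncr1 at the floor in both. The summed log2 signal of the first list was 44.6 to 50.2 in Pax5KO and 40.4 to 58.7 in WT cells, and that of the second 22.9 to 24.5 in Pax5KO and 17.5 to 19.5 in WT cells. Of 6 plasma cell markers 3 fell, Irf4 by -4.14, Sdc1 by -3.12 and Ell2 by -4.56, and 1 rose, with Prdm1 at the floor in both groups. Of 11 B lineage markers Flt3, a receptor of early progenitors, rose by 5.90, while Ms4a1 fell by -9.21 and Cd79a by -3.10. The part of these markers in the Hspe1 difference was not tested.

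The chaperones around the members were set beside the 5.94% of all genes called between the engrafted groups (3.64% higher, 2.29% lower). Of 13 other heat-inducible chaperones, Cacybp, a partner of ubiquitin ligases, was higher by 0.72 (SE 0.16, limma adjusted p = 0.0325) and none was lower. Of 9 other HSP70 proteins, Hspa9, the mitochondrial HSP70, had a mean of 11.91 ± 0.42 (SD, n = 3) in Pax5KO engrafted and 10.33 ± 0.52 (SD, n = 3) in WT engrafted cells and was higher by 1.58 (limma adjusted p = 0.0156). Of 22 co-chaperones, Hspbp1, an exchange factor, was higher by 1.91 (limma adjusted p = 0.0235) and Dnajc7, a J protein, was lower by -2.40 (limma adjusted p = 0.000331). Of the 8 subunits of the cytosolic chaperonin ring, Cct6a was higher by 0.84 (limma adjusted p = 0.0432). Of 18 endoplasmic reticulum stress genes, Herpud1, a factor of protein degradation there, was lower by -1.50 (limma adjusted p = 0.0304). Among 15 immediate early genes, which respond quickly to many stimuli, 3 were lower and 1 higher, led by Klf2 at -6.62 (limma adjusted p = 2.73e-05). With the replicate number as a block none of these calls held: the limma adjusted p was 0.262 for Cacybp, 0.284 for Hspa9, 0.382 for Hspbp1, 0.0924 for Dnajc7, 0.188 for Cct6a, 0.191 for Herpud1 and 0.0640 for Klf2. Of the marker calls named for these groups, that of Irf4 held with the block (limma adjusted p = 0.0301).

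Ly6D+ CLP were compared with Ly6D- CLP, the step at which progenitors turn to the B lineage. Bag3 was lower, and it was 1 of 8 members called, against 1.45% of all genes (0.813% higher, 0.638% lower). Hspa1b differed by -1.73 (SE 1.02, limma adjusted p = 0.551), with 5.86 on one of the 2 Ly6D- CLP arrays and 3.58 on the other. The remaining members differed by -0.25 to 0.14. In the lists of other chaperones, co-chaperones, chaperonin subunits, mitochondrial, endoplasmic reticulum stress and immediate early genes, limma called none at this step. Fkbp4, a co-chaperone of HSP90, had the largest difference of the 13 heat-inducible chaperones, at 1.0 (SE 0.52, limma adjusted p = 0.496). At an unadjusted p under 0.05 there were 0 of 13 heat-inducible chaperones, 1 of 9 HSP70 proteins, 3 of 22 co-chaperones and 3 of 15 immediate early genes. Of all 18193 genes, 1809 were under this value.

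ProB cells were higher than Ly6D+ CLP in Hspa1b, Hsph1 and Hspe1, and no member was lower. These are 3 of 8 members called higher, against 7.29% of all genes (1.93% higher, 5.36% lower). Hspe1 was higher by 1.13 (SE 0.26, limma adjusted p = 0.0353), a call that ended without any 1 of the 4 arrays (limma adjusted p from 0.0582 to 0.158). Dnaja1 differed by 0.75 (SE 0.35, limma adjusted p = 0.309), and Hspa8, Dnajb1, Bag3 and Hspa1a by -0.09 to 0.26. Chordc1, an HSP90 partner, averaged 11.61 ± 0.39 in ProB and 9.57 ± 0.64 in Ly6D+ CLP (SD, n = 2 each) and was higher by 2.04 (limma adjusted p = 0.0186), and Cacybp was higher by 1.11 (limma adjusted p = 0.0106). These were 2 of 13 other heat-inducible chaperones, with none lower. Of the 22 co-chaperones, Bag6, which guards newly made membrane proteins, was lower by -1.58 (limma adjusted p = 0.00649). Of 15 immediate early genes 4 were lower, none was higher and the others were not called. Socs3, a feedback inhibitor of cytokine signals, was lower by -5.24 (limma adjusted p = 0.00216) and Junb, an AP-1 subunit, by -3.79 (limma adjusted p = 0.000181). Of the 10 granulocyte and monocyte markers, Mpo fell, and of the 7 T and NK cell markers, Nkg7 and Klrd1 fell. The summed log2 signal of the first list was 31.1 and 31.3 in ProB and 44.4 and 49.8 in Ly6D+ CLP, and that of the second 18.1 and 19.4 in ProB and 26.9 and 28.9 in Ly6D+ CLP. Of 11 B lineage markers 2 rose and 3 fell, and of 6 plasma cell markers Irf4 and Jchain rose. The part of these markers in the 3 member differences was not tested. With arrays centred on their 75th percentile, all differences of this comparison moved by 0.31, the calls over all genes went to 664 higher and 793 lower, against 351 and 976, and Dnaja1 was called as well, at 1.07 (limma adjusted p = 0.0421).

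**Figure D4:**
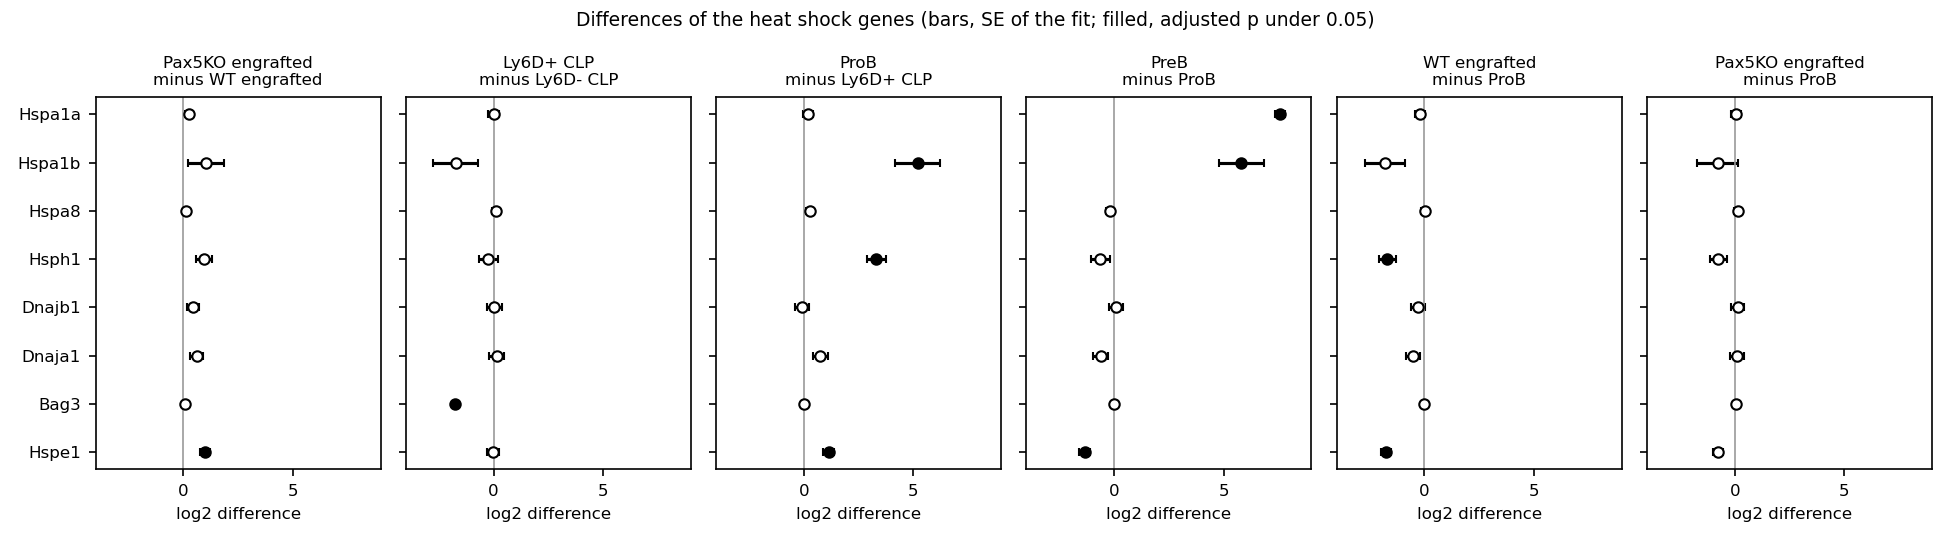
Log2 differences (horizontal axes) of the 8 heat shock genes (vertical axis) in the 6 comparisons, first named group minus second; bars are the SE of the fit and filled points have a limma adjusted p under 0.05. Hspa1a and Hspa1b stand far to the right in PreB minus ProB (7.55 and 5.80), and Hspa1b and Hsph1 in ProB minus Ly6D+ CLP (5.20 and 3.30).

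PreB cells were compared with ProB cells, the step at which the heavy chain has been made. Hspa1a and Hspa1b were higher and Hspe1 was lower, by -1.35 (SE 0.26, limma adjusted p = 0.0119). Thus 3 of 8 members were called, against 11.5% of all genes (6.35% higher, 5.19% lower). With genes of a mean signal under 4 left out, 2 of 6 members were called, against 2349 of 8537 genes. The Hspe1 call ended without ProB array 2 or PreB array 2 (limma adjusted p = 0.0680 and 0.0672) and with the actin covariate (limma adjusted p = 0.231). Hsph1, Dnaja1, Hspa8, Dnajb1 and Bag3 differed by -0.64 to 0.09. The 8 differences ran from -1.35 to 7.55, with a median of -0.10, so the members did not move as one.

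**Figure D5:**
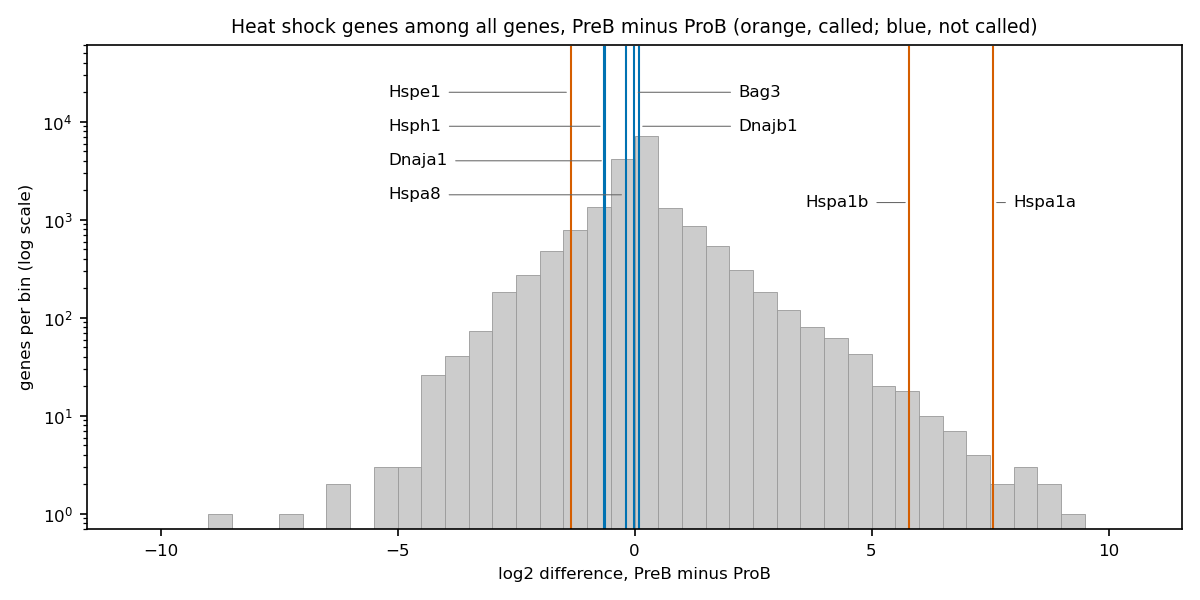
Number of genes per bin (vertical axis, log scale) by the log2 difference PreB minus ProB (horizontal axis) for all 18193 genes. Vertical lines mark the 8 heat shock genes, orange where called and blue where not; Hspa1a (7.55) and Hspa1b (5.80) lie in the upper tail and the other 6 between -1.35 and 0.09.

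The other chaperones mostly fell or were not called in PreB cells. Of the 13 other heat-inducible chaperones 4 fell and none rose. Hspd1, the partner of Hspe1, read 10.62 and 10.20 in PreB against 12.86 and 12.55 in ProB and was lower by -2.30 (SE 0.37, limma adjusted p = 0.00497). Fkbp4 was lower by -2.93 (limma adjusted p = 0.00808) and Cacybp by -1.15 (limma adjusted p = 0.00658). Of the 8 chaperonin ring subunits 5 fell, with Cct7 lower by -1.26 (limma adjusted p = 0.000629) and a list median of -1.0. Of 9 mitochondrial chaperones and proteases 4 fell, including the HSP90 of mitochondria, Trap1, by -2.52 (limma adjusted p = 0.000214), and the protease Lonp1, by -3.14 (limma adjusted p = 0.000332). None of either list rose.

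Among the other HSP70 proteins, Hspa2 averaged 8.14 ± 0.41 in PreB and 5.92 ± 0.58 in ProB cells (SD, n = 2 each) and was higher by 2.21 (limma adjusted p = 0.0246), and Hspa9 was lower by -1.40 (limma adjusted p = 0.0411). Hspa1l, the third gene of the Hspa1a cluster on chromosome 17 and named after its values were seen, lay between 2.32 and 2.42 on all 14 arrays. Of 22 co-chaperones 3 rose and 2 fell, led by the rise of Dnajc7 by 2.57 (limma adjusted p = 0.000641), Dnajb6 by 1.42 (limma adjusted p = 0.0109) and the fall of Stub1, a ubiquitin ligase that acts on HSP70 clients, by -2.07 (limma adjusted p = 0.00839). Of 18 endoplasmic reticulum stress genes 4 rose and 3 fell, among them Ddit3, which encodes the stress factor CHOP, higher by 3.91 (limma adjusted p = 0.00116), and Pdia6, a disulfide isomerase, lower by -2.96 (limma adjusted p = 0.00143).

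Outside the chaperones, of 15 immediate early genes 9 rose and none fell, with a median of 3.05. Atf3, a transcription factor of the stress response, was at the floor in ProB and was higher in PreB by at least 4.24 (limma adjusted p = 1.43e-06), Junb by 3.95 (limma adjusted p = 7.7e-05) and the antiproliferative Btg2 by 5.42 (limma adjusted p = 0.000106). Of the 10 granulocyte and monocyte markers 7 rose and none fell, and their summed log2 signal was 85.9 and 86.0 in PreB against 31.1 and 31.3 in ProB. Elane was at the floor in both groups, and Ctsg, Ngp, Camp and Ltf in ProB. Klrd1 and Nkg7 rose among 7 T and NK cell markers, with Cd3e, Cd3g, Cd4, Cd8a and Ncr1 at the floor in both groups. Vcam1 rose among 6 stromal and endothelial markers, and of 6 plasma cell markers Prdm1 rose and Jchain fell. Of 11 B lineage markers 6 rose and 2 fell. The part of these markers, of the poly-A controls and of the actin difference in the Hspa1a and Hspa1b differences was not tested. Values with the actin difference as a covariate, and their limit, stand with Hspa1b. In sorted samples of this kind fewer cells of a type and less RNA per cell cannot be told apart.

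WT engrafted cells were lower than ProB cells in Hspe1 and Hsph1 and higher in none, 2 of 8 members, against 4.93% of all genes (3.63% higher, 1.3% lower). Hspe1 differed by -1.74 (SE 0.24, limma adjusted p = 0.00482). Hspa1b differed by -1.80 (SE 0.93, limma adjusted p = 0.359), with 1 WT array, at 7.55, close to the ProB arrays. Hspd1 was lower by -1.67 (limma adjusted p = 0.0275), Cacybp by -1.18 (limma adjusted p = 0.00772) and Hspa9 by -1.93 (limma adjusted p = 0.0142), while Hspa2 was higher by 1.97 (limma adjusted p = 0.0492). Dnajc7, Bag6 and Dnajc5 were higher among the 22 co-chaperones, with differences of 2.44, 1.32 and 1.28 and limma adjusted p of 0.0012, 0.0139 and 0.0297. Of 15 immediate early genes 3 were higher, Btg2 by 4.70 (limma adjusted p = 0.000353), Klf2 by 5.19 (0.000466) and Jund by 2.21 (0.0269), and 1 was lower. Of 18 endoplasmic reticulum stress genes, Herpud1 was higher by 2.16 (limma adjusted p = 0.0133) and Pdia6 lower by -1.55 (limma adjusted p = 0.0346). No chaperonin ring subunit was called by limma, and 2 of 8 had an unadjusted p under 0.05, as had 2869 of all 18193 genes. Over all genes 661 were higher and 236 lower, and 502 higher and 626 lower with arrays centred on their 75th percentile, which moved all differences by -0.32. Of 11 B lineage markers 3 rose, Ms4a1 by 4.83, Ly6d by 4.97 and Il2ra, at the floor in ProB, by at least 3.66, and 1 fell; of 6 plasma cell markers Jchain fell by -6.91, with Prdm1 at the floor in both groups. None of 10 granulocyte and monocyte markers was called by limma, with 3 at an unadjusted p under 0.05, and their summed log2 signal was 40.4 to 58.7 in WT engrafted and 31.1 and 31.3 in ProB cells. The part of these markers in the Hspe1 and Hsph1 differences was not tested.

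Pax5KO engrafted cells showed no called member against ProB, against 5.24% of all genes (4.22% higher, 1.02% lower). Hspe1 differed by -0.76 (SE 0.24, limma adjusted p = 0.130) and was the 1 member with an unadjusted p under 0.05. Of all 18193 genes, 2827 were under this value. Hsph1 differed by -0.75 (SE 0.39, limma adjusted p = 0.377) and Hspa1b by -0.77 (SE 0.93, limma adjusted p = 0.906). With arrays centred on their 75th percentile all differences moved by -0.43, and Hsph1, Hspe1 and Bag3 were called lower, Bag3 being at the floor in both groups; 974 genes were then called higher and 7350 lower, against 768 and 185. Bag6 was higher by 1.88 (limma adjusted p = 0.00232) among the co-chaperones, and of the immediate early genes Fos was lower by -4.40 (limma adjusted p = 0.0174) and Btg2 higher by 1.68 (limma adjusted p = 0.0351). Of the 13 other heat-inducible chaperones limma called none, and 2 had an unadjusted p under 0.05; Chordc1 differed by -1.06 (limma adjusted p = 0.174). Ctsg rose among 10 granulocyte and monocyte markers and Klrd1 among 7 T and NK cell markers, and of 11 B lineage markers 4 rose and 2 fell. This comparison and the one with WT engrafted cells share the ProB arrays, and both engrafted groups were also compared with each other.

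Over all 6 groups the F test called 5 of 8 members, against 21.4% of all genes: Hspa1a (limma adjusted p = 6.18e-07), Hspa1b (0.00118), Hsph1 (0.00264), Bag3 (7.69e-06) and Hspe1 (0.0101). The values for Hspa1a and Bag3 rest on a spread made small by the floor. With genes of a mean signal under 4 left out, 3 of 6 members were called, against 4293 of 8537 genes. With array weights Hsph1 was not called (limma adjusted p = 0.148). Without the PreB arrays, an alternative chosen after seeing the data, 3 were called, and Hspa1a (limma adjusted p = 0.841) and Hspa1b (0.0649) were not. The 5 called genes peaked in different groups: Hspa1a and Hspa1b in PreB, Hsph1 and Hspe1 in ProB, and Bag3 in Ly6D- CLP.

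Of the factors that drive these genes, 4 of 5 were measured and Hsf1 was not analysed here. Hsf5 was at 2.32 on all 14 arrays, Hsf4 exceeded 2.39 on 1 ProB array only (3.01), and Hsf2 exceeded 2.54 on 1 PreB array only (4.03). Hsbp1, which binds HSF1 and restrains it, read 7.33 to 9.71, with the highest value in Ly6D- CLP and the lowest in PreB. None of these 4 was called by limma in any of the 6 comparisons, nor had an unadjusted p under 0.05.

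The members were finally compared with their own mean pattern, each scaled to its SD over the 14 arrays. Each member is itself part of this mean, which raises its r, so these values do not show that the members vary together. Hsph1 followed the mean most closely (Pearson r 0.86), then Hspa1b (0.73), Dnaja1 (0.61), Dnajb1 (0.55), Hspa8 (0.53), Hspe1 (0.52) and Hspa1a (0.40), while Bag3 ran weakly against it (-0.20). Of 9381 genes above the floor on at least 7 arrays, those most like the mean of the members were Snx12 (r 0.81), Adat2 (0.79), Surf6 (0.78), Gtpbp4 (0.77), Csgalnact1 (0.77), Pex13 (0.77), Mcm4 (0.77) and Snx6 (0.75). These values describe 14 arrays of 6 groups, which are not independent points, and carry no test. Snx12 averaged 7.07 in ProB, 7.02 in PreB, 6.89 in Pax5KO engrafted and 6.46 in WT engrafted cells, against 6.10 in Ly6D- and 5.87 in Ly6D+ CLP.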

How the data were processed

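The deposited table gives a log2 signal for every probe set on each of 14 arrays. The submitters' processing notes list RMA, GCRMA and limma, without saying what each was used for; versions are not given in the sources used here. RNA was extracted with a Qiagen kit and biotin labelled by the Affymetrix protocol, per the labels. Values ran from 2.32 to 16.1, with array medians of 2.41 to 2.52, and were used as deposited. The lowest value is a floor, and a group whose arrays all lay no more than 0.5 above it is called at the floor; differences from such a group are lower bounds of the change. The number of arrays limits the precision.

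Gene names came from the platform annotation, updated through RefSeq (GRCm38.p6). Of the probe sets, 34945 had 1 symbol, 932 several, 9160 none here and 64 were controls; 34741 were matched in RefSeq. Limma 3.58.1 in R 4.3.3 was fitted to all 14 arrays with a mean per group (8 residual degrees of freedom), two-sided, with Benjamini-Hochberg adjustment over 18193 genes and calls under 0.05. The method was also run on simulated data with normal spread and no floor, which does not cover genes at the floor. Promoter windows are those of RefSeq.

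All 8 members were named in every group. From each list of related genes or cell type markers, at most 3 called genes per comparison were named by lowest adjusted p, or, if none was called, the one of largest difference, and the 8 genes most correlated with the members' mean were named. The members and lists were chosen with earlier results of these data known. The lists were heat shock factors, other heat-inducible chaperones, other HSP70 proteins, HSP70 co-chaperones, chaperonin ring subunits, mitochondrial chaperones and proteases, endoplasmic reticulum stress and immediate early genes, and markers of B lineage progenitors, granulocytes and monocytes, erythroid, plasma, T and NK, and stromal and endothelial cells. The 5 erythroid markers measured had no call in any comparison.

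The labels do not say that replicate numbers mark a shared day or litter. Deviations from the group mean on same-numbered Pax5KO and WT engrafted arrays correlated at 0.13, 0.303 and 0.543 for numbers 1, 2 and 3. Arrays of unlike number gave 0.39 (Pax5KO 1 with WT 2), 0.187 (Pax5KO 2 with WT 1) and otherwise -0.489 to -0.223. Only the arrays numbered 3 thus stood together, and numbers 1 and 2 showed no pairing. The engrafted arrays numbered 3 also had the largest Gapdh 3' minus 5' differences, 5.79 in Pax5KO and 5.44 in WT. On the other engrafted arrays these were 2.61 to 3.90. The part of this in the correlation was not tested. The blocked value between these groups is given for the named calls outside the cell type markers. PreB arrays are numbered 2 and 3 in titles, used here as names, and 1 and 2 in descriptions, used for the block. The labels do not state whether the replicates of a group came from separate mice, so p-values measure the spread between these arrays. For genes at the floor in most groups, such as Hspa1a and Bag3, the floor makes that spread small. Alternatives covered the probe set rule, a filter on dim genes (mean under 4), scaling, array weights, the actin difference as a covariate, the arrays in the fit, the replicate block and each array left out.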

Additional observations from a re-analysis of the deposited data

How the results depend on the processing

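Of 786 values of single heat shock genes under an alternative, 723 kept their side of the threshold without a reversed call (50 of them turned sign while called under neither setting), 56 lost a call, 6 gained one and 1 changed sign on being called: Bag3, at the floor in Pax5KO engrafted and ProB cells, read -0.37 with arrays centred on the 75th percentile, which itself moved every gene of that comparison by -0.43. The cause of these changes was not tested, except that fewer arrays entered some fits.

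In Pax5KO against WT engrafted cells 0 members were called with averaged probe sets, centring on the 75th percentile, the actin covariate or only these 6 arrays, and 0 without both engrafted arrays numbered 3, an alternative chosen after seeing the data. Genes called there numbered 3065 with array weights, 697 with only these arrays and 676 to 1034 without any one array (members 0 to 1). In Ly6D+ against Ly6D- CLP 414 probe sets were called when each stood alone, 102 genes with array weights, 1 gene and 0 members with only these 4 arrays, and 694 to 1144 genes without any one array. Leaving out genes of a mean under 4 removed Bag3 and Hspa1a before the test and left 8537 genes. In Ly6D+ against Ly6D- CLP 0 of 6 members were then called, against 210 of the 8537 genes. By the F test over all groups 3 of 6 were called, against 4293 of the 8537 genes, with no loss of a tested call. In ProB against Ly6D+ CLP array weights gave 368 genes and 0 members, only these arrays 3 genes and 0 members, and leaving out an array 1060 to 2129 genes and 1 to 2 members. In PreB against ProB the actin covariate gave 342 genes and 1 member, and only these arrays 487 genes. In WT engrafted against ProB cells 1 member was called with averaged or single probe sets, array weights, the actin covariate, without any one array, or without both engrafted arrays numbered 3; only these arrays gave 100 genes and 0 members, and leaving out an array 489 to 1825 genes. In Pax5KO engrafted against ProB cells centring gave 8324 genes and 3 members, only these arrays 191 genes, and leaving out an array 565 to 1883 genes. Over all groups the F test called 2062 genes and 3 members without the PreB arrays, also chosen after seeing the data, and 4 members with array weights.

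With the replicate number as a block, 92 genes and 0 members were called in Pax5KO against WT engrafted cells. In each of the other 5 comparisons 0 genes and 0 members were called, and same-numbered arrays did not deviate together there (correlations -0.176 to 0.15). The blocked fits use only the arrays of the groups compared and leave hardly any residual degrees of freedom. A lack of calls in them therefore says little. Values near the floor limit what can be seen of Hspa1a and Bag3 outside the group that expresses them.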
